A study of Mus musculus with 51 samples.

Results

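The Kcnq1ot1 imprinted cluster of the mouse was taken as the stretch of chromosome 7 (GRCm38) from -456.5 to 503.5 kb around the start of Kcnq1ot1, which lies at 143203458 to 143296549 on the minus strand, with 10 named genes: Kcnq1ot1, Kcnq1, Cdkn1c, Slc22a18, Phlda2, Tssc4, Cd81, Ascl2, Trpm5 and Tnfrsf23. The rule uses position and name and no measured value, but the genes were listed with earlier results of these data known. The interval held 81 of the 144952 autosomal peaks in the 6 tables of allelic reads, 960 windows of 1 kb, and 44 of the 51229 autosomal genes of GENCODE vM21. Genes are ordered below by the distance of their start site from that of Kcnq1ot1, where minus marks the centromeric side.

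Genes of this cluster are imprinted, which means that 1 parental copy is the more active. The long noncoding RNA Kcnq1ot1 is made from the paternal chromosome, antisense to Kcnq1 and from a promoter within an intron of that gene, and neighbouring genes on the same chromosome are silenced. On the maternal chromosome this promoter receives DNA methylation in the oocyte and the RNA is not made. Genes near Kcnq1ot1 are known to be imprinted in embryo and placenta, and genes farther out mainly in the placenta, whose trophoblast derives in part from the extra-embryonic ectoderm (ExE). H3K4me3 marks active promoters, H3K27me3 is the repressive mark of the Polycomb complex PRC2, and H3K36me3 is laid down along transcribed gene bodies.

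Chromatin came from dissected epiblast (Epi) or ExE of mouse embryos at embryonic day 6.5, profiled by low-input native ChIP-seq. Each library is a pool of several embryos, and the marks of a pool share its chromatin, so p-values measure the spread between pools. B6/CAST embryos had a C57BL/6 mother and a CAST father, CAST/B6 embryos had the parents the other way round, and these reciprocal crosses are called wild type. In matDKO/CAST the mothers carried floxed alleles of Dnmt3a and Dnmt3b (fl/fl for each) with Zp3-cre, which deletes in the oocyte, on a mixed B6 and 129 background, and the fathers were CAST. These embryos lacked the DNA methylation of the oocyte and carried 1 deleted copy of either gene. There were 36 ChIP libraries in 18 groups of 2, so each mark and tissue had 4 wild-type libraries and 2 of matDKO/CAST, besides 15 inputs (9 of Epi, 6 of ExE).

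Reads assigned to a parent in autosomal peaks numbered 1.12 to 6.06 M (mega) per library for H3K4me3 in Epi and 2.70 to 6.82 M in ExE. The cluster took 858 to 4242 and 1434 to 4408 of them. For H3K27me3 it took 2489 to 12956 reads in Epi and 10870 to 24964 in ExE, and for H3K36me3 189 to 864 and 424 to 1234. Over all autosomal peaks the paternal share was 47.4 to 51.2% in wild-type libraries and 44.2 to 48.9% in matDKO/CAST, where a second alignment to the 129 genome adds maternal reads only. By H3K4me3 at start sites, 4 of 6 epiblast markers were higher in every Epi library than in every ExE library and the other 2 overlapped. Of 6 ExE markers 3 were higher in every ExE library, 1 in every Epi library and 2 overlapped. Of 7 visceral endoderm markers 3 were higher in every ExE library, 1 (Sox17) in every Epi library and 3 overlapped (summed level 38.9 to 65.4 RPKM in ExE, 25.3 to 45.3 in Epi), and of 5 markers of ectoplacental cone and giant cells 1 was (17.9 to 28.2 and 7.84 to 17.7 RPKM), while all 6 markers of decidua and blood overlapped, 5 of them below 1 RPKM in every library (2.60 to 5.53 RPKM in ExE and 4.55 to 7.40 in Epi). The share of all start sites that separate in this way was not counted, so these counts are no measure of tissue purity. Of all merged H3K4me3 peaks, 28.8% tested higher in wild-type ExE and 18.9% lower (limma, adjusted p below 0.05). The part of other cell types in the tissue differences below was not tested, and in pooled tissue fewer marked cells and less mark per cell cannot be told apart. The part of Dnmt3a and Dnmt3b that was deleted is not given in the labels, so the reads over these genes check no label.

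The 250 bases before the start of 3 genes are shown because the results turn on them: Kcnq1ot1 has the paternal promoter of the cluster, and Ascl2 and Cd81 had the largest estimated change of bias between the tissues among the 10 genes. The sequences are the reference of RefSeq on GRCm38, 5′ to 3′ on the strand of the gene, with every CpG, the dinucleotide that DNA methylation targets, in capitals. RefSeq entries were matched for 8 of the 10 genes (Cdkn1c and Kcnq1 have none here).
Kcnq1ot1, chr7:143296548-143296797, minus strand: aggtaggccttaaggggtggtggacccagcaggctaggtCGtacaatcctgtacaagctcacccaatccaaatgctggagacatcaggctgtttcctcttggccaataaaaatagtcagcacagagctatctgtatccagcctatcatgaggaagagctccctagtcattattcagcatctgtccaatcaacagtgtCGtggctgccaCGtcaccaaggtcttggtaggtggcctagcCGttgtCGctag
Ascl2, chr7:142969265-142969514, minus strand: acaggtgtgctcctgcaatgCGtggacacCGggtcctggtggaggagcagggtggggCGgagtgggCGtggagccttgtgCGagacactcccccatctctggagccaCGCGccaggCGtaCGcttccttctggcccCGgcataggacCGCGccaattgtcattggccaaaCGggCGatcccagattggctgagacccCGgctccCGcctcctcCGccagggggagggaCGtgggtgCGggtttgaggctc
Cd81, chr7:143052500-143052749, plus strand: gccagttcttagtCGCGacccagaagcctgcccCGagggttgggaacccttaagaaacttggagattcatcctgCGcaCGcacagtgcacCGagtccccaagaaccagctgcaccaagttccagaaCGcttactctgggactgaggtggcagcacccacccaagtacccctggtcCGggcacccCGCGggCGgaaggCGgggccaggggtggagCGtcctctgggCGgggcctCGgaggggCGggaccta
The window of Kcnq1ot1 held 5 CpG, that of Ascl2 19 and that of Cd81 16, against a median of 6 over 32851 promoters. The other windows held 21 CpG at Phlda2, 17 at Tssc4, 8 at Tnfrsf23, 4 at Trpm5 and 0 at Slc22a18. The letters CCAAT, searched on both strands, occurred 3 times before Kcnq1ot1 and 3 times before Ascl2, once each before Tssc4, Phlda2 and Tnfrsf23, and not in the other windows. At least 1 match was in 33.8% of all promoters and at least 3 in 2.79%. The letters TGCCGC were in none of the 8 windows and in 8.68% of all promoters.

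The reciprocal crosses were used to ask which peaks followed the parent. A peak was informative with at least 20 reads on 1 allele of a wild-type library, and imprinted when paternal and maternal reads differed in both crosses with the same parent higher (edgeR quasi-likelihood test, adjusted p below 0.05 by Benjamini-Hochberg over all informative autosomal peaks). In ExE 13 of 22 informative H3K4me3 peaks were higher on the maternal allele and 1, that of Kcnq1ot1, on the paternal allele. Over all autosomes 0.129% of peaks were called maternal and 0.190% paternal in ExE. In Epi 2 of 20 were maternal and 1 paternal, where all autosomes gave 0.0295% and 0.0787%. Of the 10 genes, 9 had an H3K4me3 peak at the start site, and Trpm5, a cation channel of taste signalling, had none in either tissue. In ExE all 9 were informative and imprinted, 1 paternal and 8 maternal. In Epi 8 were informative, with 1 paternal (Kcnq1ot1), 2 maternal (Cdkn1c and Phlda2) and 5 that did not pass. Without B6/CAST ExE replicate 1, the deepest, 8 peaks were imprinted in ExE in place of 14. Without B6/CAST Epi replicate 1 or CAST/B6 Epi replicate 2, 1 was imprinted in Epi in place of 3.

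**Figure D1:**
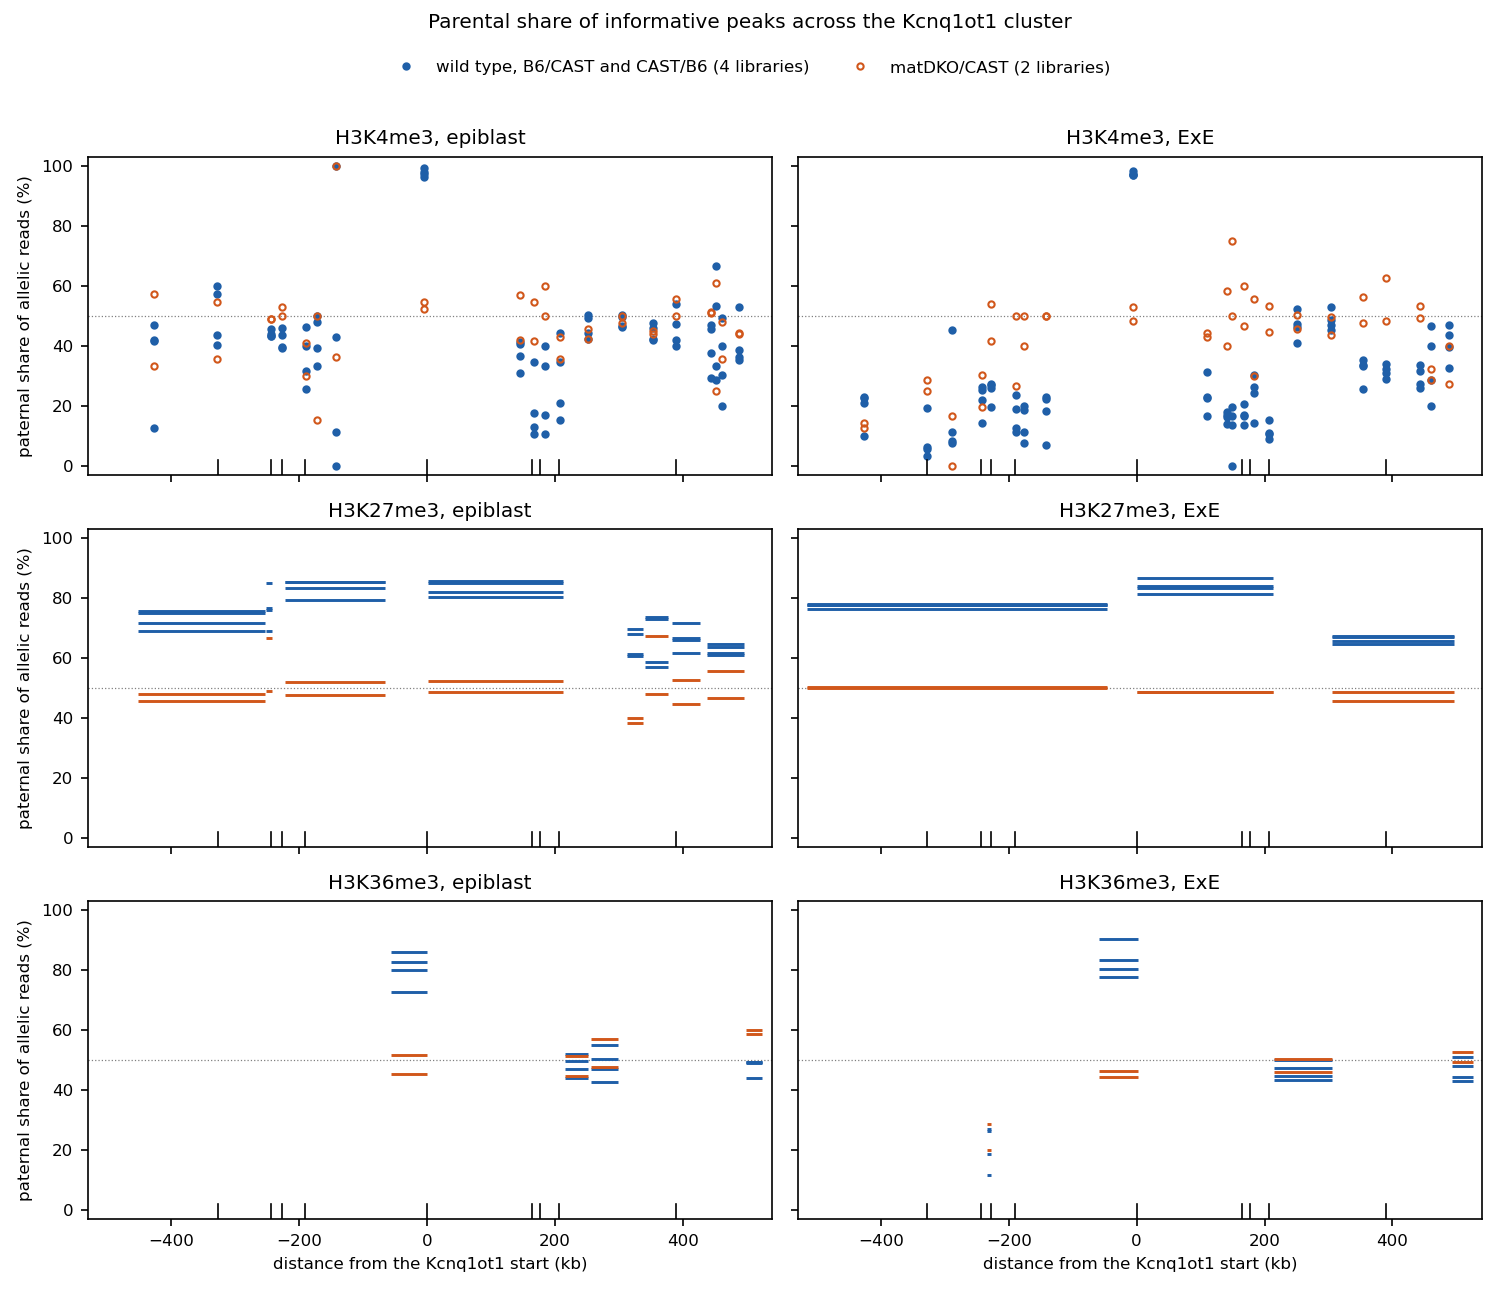
Paternal share of allelic reads (%) at informative peaks against distance from the Kcnq1ot1 start (kb), by mark and tissue, with H3K4me3 peaks drawn at their middle (1 point per library) and H3K27me3 and H3K36me3 peaks over their length (1 line per library). Ticks at the base mark the start sites of the 9 genes with an H3K4me3 peak. In wild-type ExE the H3K4me3 of the 8 marked genes other than Kcnq1ot1 lies at 34.0% or below, that of Nap1l4 and Cars between 41.1 and 53.1%, and the 3 H3K27me3 domains lie at 64.6% or above.

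Kcnq1ot1, at distance 0, had the strongest bias and the same one in both tissues. Its peak in Epi (143286000 to 143298000) had a paternal share of 98.1 and 96.3% in B6/CAST and 97.2 and 99.2% in CAST/B6, and its peak in ExE (143284500 to 143297500) had 97.0, 97.3, 96.9 and 98.3%. The log2 ratio of paternal to maternal reads was 5.22 ± 0.27 (SE) and 5.28 ± 0.29 in Epi (edgeR adjusted p 3.6e-06 and 8.51e-11) and 5.13 ± 0.17 and 5.27 ± 0.19 in ExE (3.76e-18 and 6.66e-18). The ratio in ExE minus that in Epi was -0.05 ± 0.34, which was not called (adjusted p 1.000).

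The nearest protein-coding starts lie telomeric of it. Cdkn1c, an inhibitor of cyclin-dependent kinases, starts at +164.5 kb. Its paternal share was 12.8 and 17.7% in B6/CAST and 10.7 and 34.6% in CAST/B6 Epi, and 13.7, 20.7, 16.9 and 16.5% in ExE. All 8 libraries were maternal and the tissues overlapped, with a change of 0.01 ± 0.36 in the log2 ratio. In Epi the log2 ratio of CAST/B6 was -2.18 ± 0.48 (adjusted p 0.0164) and became -0.94 (0.998) without replicate 2, and that of B6/CAST, -2.42 ± 0.28 (0.00139), was -2.19 (0.0566) without its replicate 1. DESeq2 gave -1.93 in CAST/B6 and did not call it (0.599). Slc22a18, an organic cation transporter-like membrane protein, starts at +177.2 kb. In ExE its share was 14.3 and 26.4% in B6/CAST and 30.2 and 24.4% in CAST/B6, a log2 ratio of -2.07 ± 0.27 and -1.43 ± 0.33 (adjusted p 2.68e-06 and 0.00628), and in Epi its peak had too few reads (24 over the 4 libraries). Without either CAST/B6 ExE library the second ratio was -1.61 or -1.23 and not called (0.1 and 0.216), nor was it with DESeq2 (0.264). Another Epi peak, within Slc22a18 (143480000 to 143483500), was informative and leaned maternal in both crosses (mean log2 ratio -1.74), but was not called imprinted. Matched to the ExE peak of Slc22a18, it gave a difference of 0.06 ± 0.42 between the tissues that was not called. Phlda2, which restrains growth of the placenta, starts at +206.6 kb. Its share was 20.9 and 34.5% in B6/CAST and 15.1 and 44.4% in CAST/B6 Epi, against 9.0, 15.2, 10.8 and 10.5% in ExE. The ranges touched only at 15.1 and 15.2%, and the ratio was lower in ExE by a log2 difference of -1.30 ± 0.34 that was not called (adjusted p 0.645, and 0.0300 with the library as a block). In Epi the ratios of Phlda2 were -1.36 ± 0.27 and -1.91 ± 0.43 (0.0319 and 0.018), and they were -0.90 (0.956) without B6/CAST replicate 1, -1.85 (0.0554) without its replicate 2 and -0.35 (0.998) without CAST/B6 replicate 2. DESeq2 did not call CAST/B6 (0.773).

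Centromeric of Kcnq1ot1 the nearest start among the 10 genes is that of Kcnq1. This gene, which encodes a voltage-gated potassium channel, lies at -190.2 kb. Its share was 25.6, 31.7, 40 and 46.2% in Epi and 11.2, 23.6, 19.0 and 12.5% in ExE, so every ExE library lay below every Epi library. The ratio passed in both crosses in ExE (-2.29 ± 0.32 and -2.39 ± 0.41, adjusted p 8.69e-06 and 3.42e-04) and in neither in Epi (-1.23 ± 0.36 and -0.51 ± 0.44). The difference itself, -1.45 ± 0.41, was not called (adjusted p 1.000). Without B6/CAST ExE replicate 1 the ratio of B6/CAST was -1.64 (0.0564), and with the library as a block that of B6/CAST in Epi passed (-1.24, 8.74e-06).

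Tssc4, an assembly factor of the spliceosome, starts at -227.3 kb. Its share was 39.4, 39.7, 45.9 and 43.5% in Epi and 19.5, 27.1, 27.1 and 26.1% in ExE, with no overlap and 131 to 542 reads per library. The log2 ratio was lower in ExE by -1.16 ± 0.17 (adjusted p 0.00127). Cd81, a tetraspanin of the cell surface, starts at -243.8 kb, and its peak also covers the start of the noncoding gene R74862 at -242.9 kb on the other strand. Its share was 44.0, 43.3, 43.2 and 45.7% in Epi and 14.1, 22, 25.3 and 26.2% in ExE. Near-equal alleles in all Epi libraries thus stood against a maternal excess in all ExE libraries, a difference of -1.53 ± 0.17 (adjusted p 9.07e-06). With the library as a block the small lean of Cd81 in Epi passed in both crosses (-0.31 and -0.40, adjusted p 0.0339 and 0.0381), and Tssc4 passed in B6/CAST (-0.56, 5.05e-05).

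Ascl2, a transcription factor that trophoblast needs, starts at -327.3 kb. Its share was 40.3 and 57.4% in B6/CAST and 60 and 43.8% in CAST/B6 Epi. In ExE it was 6.2 and 19.3% and 5.5 and 3.1%, so that all ExE libraries were maternal while the Epi libraries lay on both sides of 50%. The log2 ratios in ExE were -2.84 ± 0.35 and -4.33 ± 0.50 (adjusted p 1.3e-06 and 7.13e-07), and the difference from Epi was -3.65 ± 0.50 (3.86e-04). These ratios rest on 32 to 80 reads per ExE library and 16 to 77 per Epi library. Tnfrsf23, a decoy receptor for TRAIL, starts at +389.3 kb and is the outermost gene. Its share was 47.3, 40, 41.9 and 53.8% in Epi and 34.0, 31.1, 32.1 and 29.1% in ExE, again without overlap. It was imprinted in ExE (-0.995 ± 0.25 and -1.22 ± 0.30, adjusted p 0.00592 and 0.0122), and the difference of -0.77 ± 0.32 was not called (1.000). The call was lost whichever ExE library of a cross was left out, with ratios of -1.10 and -0.90 in B6/CAST (adjusted p 0.145 and 0.155) and of -1.27 and -1.10 in CAST/B6 (0.117 and 0.212), and with DESeq2 (0.192 and 0.389). How many matched autosomal peaks separate the tissues without overlap, as given for Kcnq1, Tssc4 and Tnfrsf23, was not counted.

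The bias in ExE did not order by distance. The nearest genes, Cdkn1c, Slc22a18 and Kcnq1, had ratios between -2.39 and -1.43, and Cdkn1c and Kcnq1 differed from each other by less than their errors. Lower ratios stood farther out, at Phlda2 (-2.89 ± 0.19 and -3.10 ± 0.22) and at Ascl2, which differed by less than their errors in B6/CAST. Cd81 (-2.18 ± 0.15 and -1.57 ± 0.11) and Tssc4 (-1.69 ± 0.15 and -1.51 ± 0.13) lay in the range of the nearest genes, and Tnfrsf23 had the ratios nearest to 0. Across matched peaks of the cluster the bias differed between the tissues at 4 of 20 (0.0660% of 21209 matched autosomal peaks were called), namely Ascl2, Cd81, Tssc4 and a peak without a start site between the 3′ end of Kcnq1 and Cdkn1c (143444000 to 143447000 in ExE, matched to a longer peak from 143437000 to 143447500 in Epi, -2.30 ± 0.46, adjusted p 0.0468). Without CAST/B6 Epi replicate 2, Cd81 alone was called of the 4, and Ascl2 and Tssc4 had -3.36 (0.155) and -1.11 (0.171). The peak without a start site was also not called under 7 other settings, library totals and DESeq2 among them (adjusted p 0.0736 and 0.0837).

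**Figure D2:**
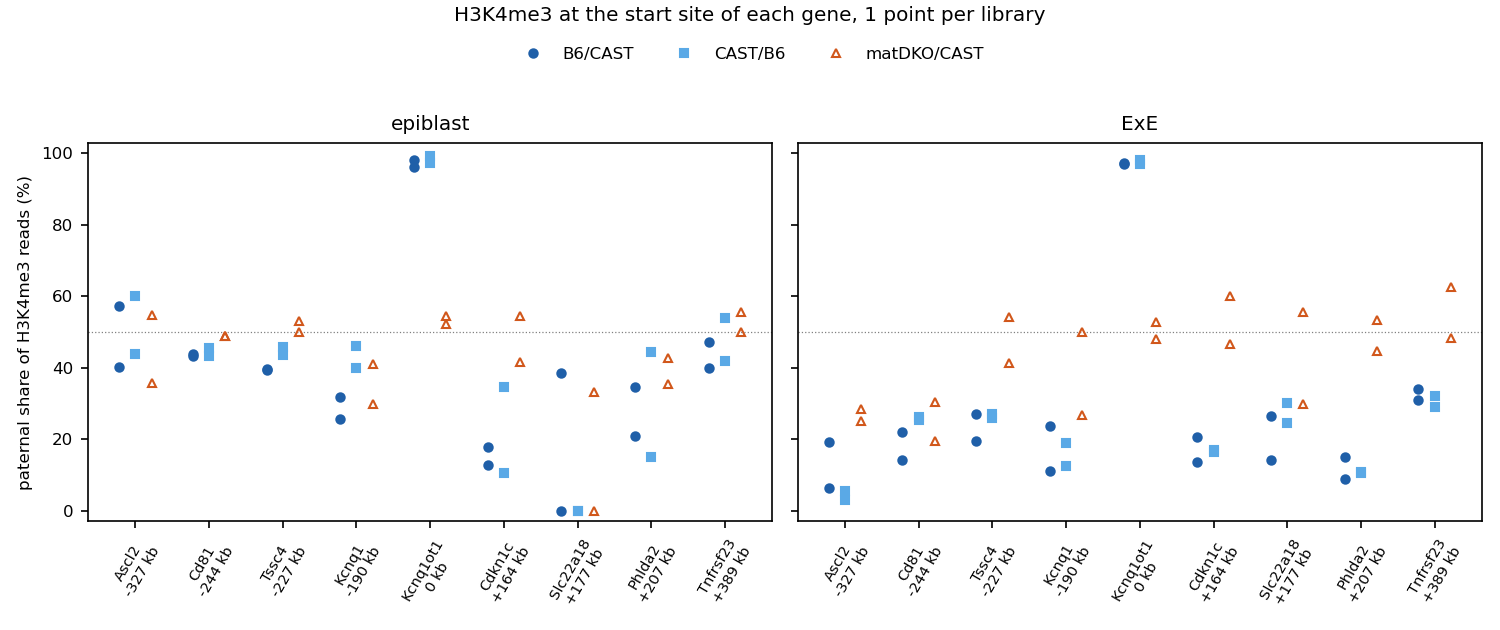
Paternal share of H3K4me3 reads (%) at the start site of 9 genes in order along the chromosome, with the distance from Kcnq1ot1 under each name, in Epi (left) and ExE (right), 1 point per library. In ExE the 8 genes other than Kcnq1ot1 lie between 3.1 and 34.0% in wild type, and Slc22a18 in Epi rests on 24 wild-type reads.

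Of the other genes, Nap1l4 (a histone chaperone, +252.6 kb) and Cars (a tRNA synthetase, +303.5 kb) lie between Phlda2 and the Tnfrsf genes and were not imprinted. Nap1l4 had a share of 46.3, 41.1, 47.2 and 52.5% in ExE and Cars 53.1, 47.1, 45.2 and 48.5%. The near-equal stretch is followed by Tnfrsf22 (+353.1 kb), again maternal in ExE with 33.7, 35.2, 33.3 and 25.5% (-0.89 ± 0.17 and -1.29 ± 0.20, adjusted p 5.04e-04 and 5.53e-05). Osbpl5 (+460.4 kb) and Mrgpre (+488.0 kb) did not pass in both crosses. Osbpl5 was maternal in B6/CAST ExE alone (-1.65 ± 0.28, 1.45e-04, against -0.36 ± 0.50 in CAST/B6). The wild-type share of all H3K4me3 reads in the cluster was 39.3 ± 2.6% in ExE (SD, n = 4) and 48.5 ± 2.6% in Epi (SD, n = 4), and the libraries did not overlap (exact two-sided permutation test p = 0.0286, the smallest that 4 against 4 allow, adjusted p 0.0857 over 3 marks). This share pools the paternal peak of Kcnq1ot1 with peaks that lean maternal, so a value near equality does not mean equal alleles at each peak. In B6/CAST Epi replicate 1, for instance, Kcnq1ot1 gave 507 of the 1940 paternal reads and 10 of the 2302 maternal reads.

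H3K27me3 was paternal over the same stretches, in long domains. In ExE 3 domains lie in the interval: the centromeric one runs from 142781500 to 143250000, the middle one from 143297500 to 143510000, past Cdkn1c, Slc22a18 and Phlda2, and the telomeric one from 143601500 to 143793000. All 3 were imprinted with the paternal allele higher (1.12% of autosomal peaks were). The middle domain had a paternal share of 83.5, 81.5, 86.8 and 83.9%, the centromeric one 77.6, 77.7, 78.0 and 76.4%, and the telomeric one 67.2, 65.8, 66.9 and 64.6%. The 3 ranges did not overlap, and log2 ratios were 2.32 ± 0.07 and 2.54 ± 0.07, 1.88 ± 0.07 and 1.74 ± 0.07, and 1.07 ± 0.08 and 0.93 ± 0.07. In Epi the interval was split into 8 peaks, 5 of them imprinted and paternal (0.280% of autosomal peaks were). The peak from 143298500 to 143509000 had 81.9, 80.5, 85.6 and 85.1%, and the one from Trpm5 into Kcnq1 (143074000 to 143231500) 79.5, 83.3, 85.3 and 85.2%. The 3 that did not pass lie beyond Cars, with shares of 57.0 to 73.6%. Another peak beyond Cars, at Tnfrsf23 (143679000 to 143723500), was imprinted and paternal. It lost its call in B6/CAST with DESeq2 (0.95, adjusted p 0.274) and in CAST/B6 without replicate 1 (0.94, 0.453). Without CAST/B6 Epi replicate 1, 3 of the 8 were imprinted. At the Cd81 start, where H3K4me3 in Epi was near equal, H3K27me3 in Epi was paternal at 85.2, 69.0, 75.9 and 76.7%, on 29 to 54 reads per library (2.01 ± 0.43 and 1.66 ± 0.36, adjusted p 0.013 and 1.64e-04). That call was lost without B6/CAST replicate 1 (0.388), without either CAST/B6 library (0.601 and 0.293) and with DESeq2 (0.227 and 0.128). The centromeric and telomeric domains of ExE were each matched to 1 shorter peak of Epi (142845000 to 143042500 and 143734000 to 143791500). None of the matched domains was called different in bias between the tissues by edgeR (0 of 3, 1 at an unadjusted p below 0.05, 1 with the library as a block and 1 with DESeq2, where 0.418% of 7424 matched peaks were called). Over all H3K27me3 reads of the cluster the paternal share was 77.6 ± 0.9% in ExE and 78.4 ± 2.4% in Epi (SD, n = 4 each, exact permutation test p = 0.514).

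The level of H3K27me3, both alleles together, had sharp edges at the Kcnq1ot1 start and after Phlda2. Bins of 10 kb, a division made after the data were seen, were compared with limma on log2 of RPKM plus 0.5. Over the body of Kcnq1ot1 the wild-type mean was 0.638 to 0.956 RPKM in ExE and 0.799 to 1.08 in Epi. Inputs had 0.528 to 0.600 RPKM, over the whole cluster and not this stretch. Wild-type H3K27me3 in windows of the cluster outside peaks was 0.194 to 0.238 RPKM in ExE and 0.195 to 0.257 in Epi. The mean over the body hides a slope, from 2.14 RPKM at -91.5 kb to 0.197 at -11.5 kb in ExE and from 2.74 to 0.302 in Epi. At the bin of the Kcnq1ot1 start the level was 0.482 to 0.609 RPKM in ExE and 0.407 to 0.473 in Epi. In the next bin telomeric, centred at 8.5 kb, it was 1.89 to 2.99 and 1.47 to 2.15 RPKM. A second edge followed Phlda2: the bin at 208.5 kb held 1.94 to 2.49 RPKM in ExE and the bin at 218.5 kb 0.118 to 0.231. From Phlda2 to Cars, with the bin of Phlda2 included, the mean was 0.324 to 0.355 RPKM in ExE, the lowest of the 7 stretches between landmark genes. In Epi the bin at 148.5 kb, towards Cdkn1c, held 4.92 to 7.63 RPKM and that of the Kcnq1 start 4.08 to 6.21 RPKM.

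**Figure D3:**
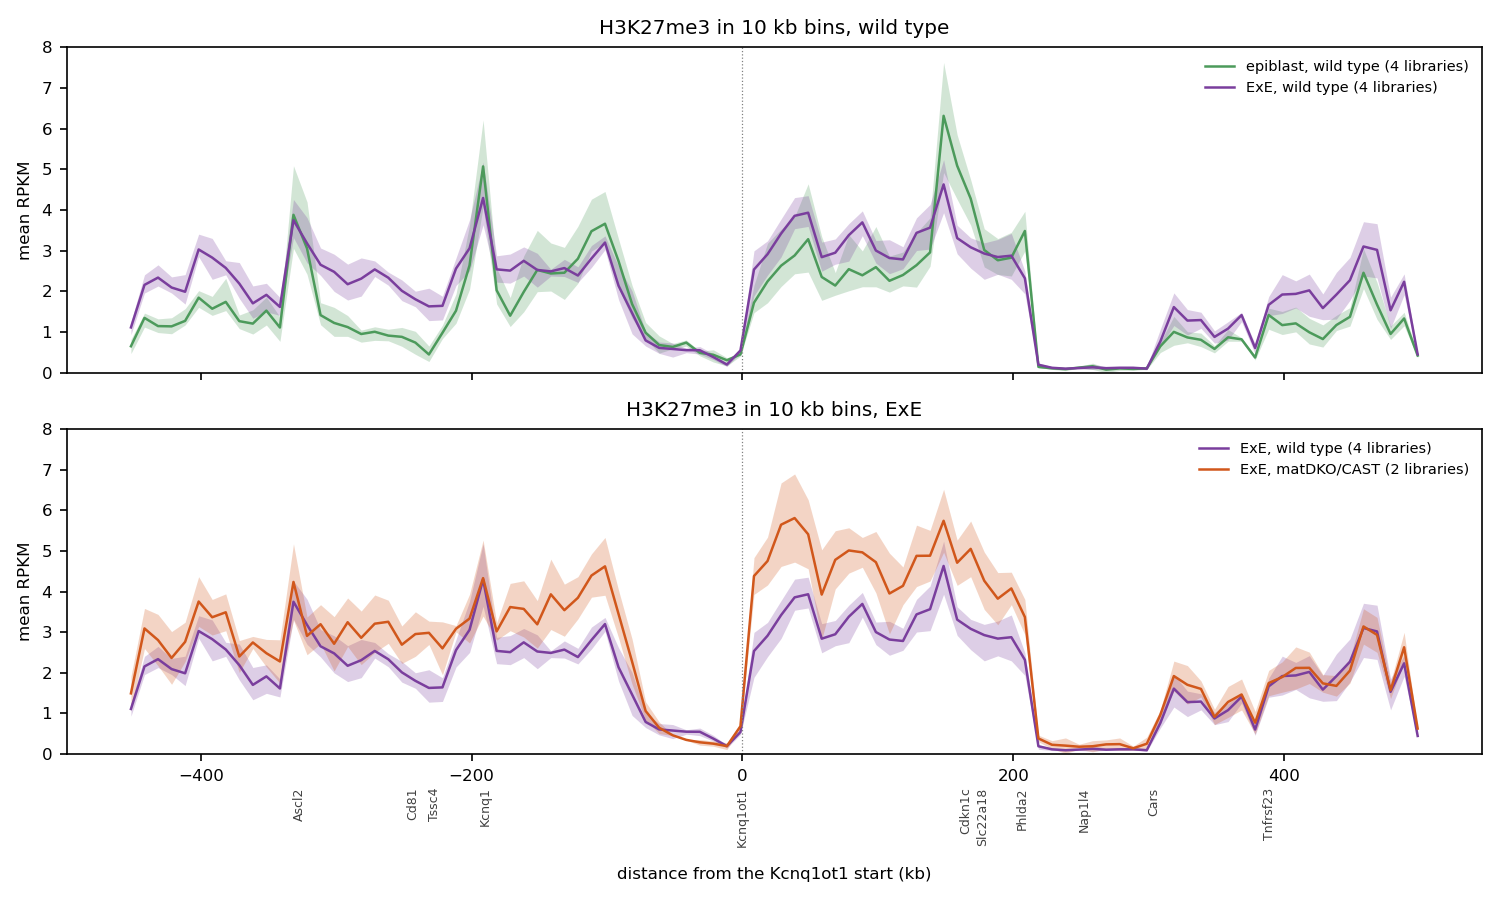
Mean H3K27me3 (RPKM) in 10 kb bins against distance from the Kcnq1ot1 start (kb), with lines for the mean and shading for the range over libraries, in wild-type Epi and ExE (top) and in wild-type and matDKO/CAST ExE (bottom). Signal rises just telomeric of the Kcnq1ot1 start, drops after Phlda2 and returns after Cars. Bins called higher in ExE than in Epi lie mainly centromeric of Kcnq1 and beyond Cars, and the ExE mean is also above that of Epi from 8.5 to 128.5 kb.

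The tissues differed in level on the outer flanks. ExE was higher at 40 of 96 bins (10.9% of 239139 autosomal bins were called higher) and lower at 2 (4.05%). These autosomal shares take in bins without the mark, while only 145 of the 960 windows of the cluster lay outside H3K27me3 peaks. Of merged autosomal peaks 45.2% were called higher, so the count of bins does not set the cluster apart from other marked regions. Higher bins numbered 11 of 13 centromeric of Ascl2, 11 of 14 from Ascl2 to Kcnq1, 1 of 9 from Kcnq1 to the 3′ end of Kcnq1ot1, 0 of 10 over the body of Kcnq1ot1, 2 of 20 from Kcnq1ot1 to Phlda2, 0 of 10 from Phlda2 to Cars and 15 of 20 beyond Cars. At the bin of Tssc4 the mean was 1.63 RPKM in ExE (1.28 to 2.08) and 0.445 in Epi (0.271 to 0.651), a log2 difference of 1.17 ± 0.13 (limma adjusted p 5.05e-06), and at that of Cd81 1.80 RPKM (1.62 to 2.00) and 0.737 (0.449 to 1.01), 0.91 ± 0.14 (1.06e-04). The bin of Ascl2 itself was high in both (3.32 to 4.26 and 3.06 to 5.09 RPKM, -0.03 ± 0.19). The 2 lower bins were that of Phlda2, with 2.32 RPKM in ExE (1.94 to 2.49) and 3.48 in Epi (2.99 to 3.97), -0.49 ± 0.15 (0.0285), and the one at 158.5 kb before Cdkn1c, with 3.31 (2.92 to 3.62) and 5.09 RPKM (4.26 to 5.85), -0.55 ± 0.18 (0.0488). By whole domains ExE was higher at 2 of 3 (45.2% of autosomal merged peaks were called higher), the centromeric by 0.35 ± 0.12 (0.0266) and the telomeric by 0.46 ± 0.11 (0.00378). The middle one had 0.09 ± 0.14 and was not called by limma (0.587), but edgeR on whole reads called it lower (-0.27, adjusted p 0.0158). The median of all merged H3K27me3 peaks stood at 0.21 on this scale, and with libraries centred on it the centromeric domain was not called (0.14, adjusted p 0.277) and the middle one stood at -0.12 (0.503). The centromeric domain also lost its call without any of 5 libraries, B6/CAST Epi replicates 1 and 2, CAST/B6 Epi replicate 2 and replicate 1 of either cross in ExE (0.0593 to 0.119), and with edgeR on whole reads (0.07, 0.597).

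Total H3K4me3 was read in RPKM without regard to parent. ExE was higher at 7 of 32 merged peaks (28.8% of 45602 autosomal merged peaks were) and lower at 6 (18.9%), and after centring at 4 and 9, so the split rests on the scaling. Of the members, Phlda2 was higher in ExE, with 5.01, 4.15, 4.11 and 5.37 RPKM against 4.17, 3.58, 3.33 and 2.07 in Epi (0.47 ± 0.16, adjusted p 0.0141, and 0.34 with 0.168 after centring). Cd81 was lower, with 6.76, 6.35, 7.28 and 8.84 against 10.6, 7.85, 13.9 and 9.64 RPKM (-0.48 ± 0.16, 0.0147). Phlda2 lost its call without B6/CAST Epi replicate 2, CAST/B6 Epi replicate 3, B6/CAST ExE replicate 1 or CAST/B6 ExE replicate 2 (0.0656 to 0.101), and Cd81 without B6/CAST Epi replicate 1, CAST/B6 Epi replicate 2 or CAST/B6 ExE replicate 1 (0.0588 to 0.0969). Ascl2 had 3.62 to 5.38 RPKM in ExE and 3.44 to 5.75 in Epi (-0.11 ± 0.16), with overlapping libraries, although its parental share differed between the tissues. Kcnq1ot1 (-0.09 ± 0.16), Tssc4 (-0.24 ± 0.16), Kcnq1 (-0.34 ± 0.15), Cdkn1c (0.19 ± 0.16), Slc22a18 (0.39 ± 0.19) and Tnfrsf23 (-0.15 ± 0.16) were not called, though Kcnq1 was after centring (-0.47, 0.0437) and Cdkn1c and Slc22a18 were, as higher, with edgeR on whole reads (0.39 and 0.78, 0.0277 and 3.21e-04). The cluster mean was 0.809 ± 0.028 RPKM in ExE and 0.819 ± 0.031 in Epi (SD, n = 4 each, ratio 0.988, exact permutation test p = 0.686). For H3K27me3 it was 2.04 ± 0.21 and 1.65 ± 0.26 RPKM (ratio 1.24, n = 4 each, exact permutation test p = 0.0857) and for H3K36me3 0.596 ± 0.034 and 0.521 ± 0.033 RPKM (ratio 1.14, n = 4 each, exact permutation test p = 0.0286, adjusted p 0.0857 over 3 marks). The ratio changed with the windows used and with the scaling. In windows outside peaks, which leave out the marked stretches, it was 1.43, 0.932 and 0.963 for H3K4me3, H3K27me3 and H3K36me3. Rescaled to the mean of all peaks it was 1.06, 1.05 and 0.922, so the direction held for H3K27me3 and turned for the other marks.

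H3K36me3 was paternal along Kcnq1ot1. The peak from 143240500 to 143296000 in Epi had a paternal share of 80.0, 72.6, 86.0 and 82.8%, and the one from 143237500 to 143298000 in ExE 90.4, 83.5, 77.6 and 80.4%. It was the 1 of 4 informative H3K36me3 peaks called imprinted in either tissue (0.0361% of autosomal peaks in Epi and 0.213% in ExE were called paternal), with log2 ratios of 1.60 ± 0.20 and 2.36 ± 0.15 in Epi and 2.88 ± 0.17 and 1.84 ± 0.16 in ExE. Kcnq1 runs through this stretch on the other strand, and reads without strand cannot be told apart between the 2 genes. The H3K36me3 peak over the 3′ end of Cd81 and the start of Tssc4 in ExE (143062000 to 143069500) leaned the other way, at 11.5, 26.3, 26.9 and 18.8% on 16 to 26 reads, and passed in B6/CAST alone (-2.10 ± 0.53, adjusted p 0.003, against -1.72 ± 0.56, 0.074), where it was lost without replicate 1 (-1.41, 0.572) and with DESeq2 (0.503). Over Nap1l4 and Cars the share was 43.3 to 50% in ExE. No matched H3K36me3 peak differed in bias between the tissues by edgeR (0 of 4, also 0 at an unadjusted p below 0.05 and 0 with DESeq2, where 0.0804% were called), and the total was higher in ExE at 3 of 9 merged peaks (22.9%): along Kcnq1ot1 (0.26 ± 0.06, adjusted p 0.00873), over Nap1l4 and Cars (0.43 ± 0.07, 0.00123) and at the telomeric edge (0.59 ± 0.09, 8.61e-04). The median of all merged H3K36me3 peaks stood at -0.14.

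The matDKO/CAST embryos address whether these biases depend on DNA methylation of the oocyte. The B6/CAST libraries serve both the calls above and the differences below, so these are not independent. At Kcnq1ot1 the H3K4me3 share was 52.3 and 54.6% in matDKO/CAST Epi and 52.9 and 48.2% in ExE, against no value below 96.3% in wild type. The log2 ratio in matDKO/CAST minus that in B6/CAST was -4.92 ± 0.35 in Epi and -4.99 ± 0.27 in ExE (edgeR test of cross by parent, adjusted p 1.67e-09 and 3.17e-09). H3K36me3 along the gene had 45.5 and 51.9% in Epi and 44.5 and 46.5% in ExE, a difference of -1.49 ± 0.32 (0.00637) and -2.97 ± 0.26 (1.27e-10), called at 1 of 4 peaks in either tissue (0.163% and 0.363% of autosomal peaks). In Epi the call was lost with DESeq2 (1.000), without either B6/CAST library (0.122 and 0.0738) or without matDKO/CAST replicate 3 (0.387). No parental bias of H3K36me3 was left in matDKO/CAST by edgeR (0 of 4 in either tissue, 1 and 0 at an unadjusted p below 0.05, 0 with DESeq2, where 0.451% and 0.677% of autosomal peaks were called).

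The shares of H3K4me3 at the other genes gave fewer calls. In ExE the test of cross by parent called 4 of 22 peaks (0.892% of autosomal peaks were called), Kcnq1ot1, Phlda2, Cdkn1c and Tssc4, and at 8 with the library as a block. Phlda2 went to 44.7 and 53.3% (2.91 ± 0.44, adjusted p 9.09e-04), Cdkn1c to 46.7 and 60% (2.48 ± 0.54, 0.0256) and Tssc4 to 41.5 and 54.1% (1.61 ± 0.33, 0.0159). Each of the 3 lost its call without B6/CAST ExE replicate 1 (2.46, 2.08 and 1.31, adjusted p 0.176, 1.0 and 0.456). Cdkn1c lost it without any 1 of the 4 libraries (from 0.105) and with DESeq2 (0.0773), and Tssc4 also without B6/CAST replicate 2 (0.0648) or matDKO/CAST replicate 3 (0.12). Without B6/CAST ExE replicate 2 or matDKO/CAST ExE replicate 3, 2 peaks were called. Tnfrsf23 had 62.5 and 48.3%, Slc22a18 30.0 and 55.6% and Kcnq1 26.7 and 50%, with differences of 1.36 ± 0.57, 1.48 ± 0.71 and 1.69 ± 0.75 that were not called, on 9 to 29 reads per matDKO/CAST library. In Epi the difference was called at 2 of 20 peaks (0.674%), Kcnq1ot1 and Cdkn1c, which had 41.7 and 54.5% (2.39 ± 0.54, 0.0273). That call was lost without either matDKO/CAST library (0.247 and 0.372) and with DESeq2 (0.0955). With the library as a block Tssc4 passed in Epi (0.79, adjusted p 0.00556, against 0.419 without it). A parental bias was left in matDKO/CAST at 0 of 20 H3K4me3 peaks in Epi by edgeR (1 at an unadjusted p below 0.05, 0 with DESeq2, where 7.17% of autosomal peaks were called) and at 1 of 22 in ExE (2.76%).

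That 1 peak was Cd81. Its paternal share in matDKO/CAST ExE was 19.6 and 30.4%, within 14.1 to 26.2% of wild type but for the second, a log2 ratio of -1.52 ± 0.30 (adjusted p 0.0184), and the difference from B6/CAST was 0.63 ± 0.36 and not called (1.000). The call was lost with DESeq2 (0.111) and without matDKO/CAST ExE replicate 2 (-1.14, 0.153). Ascl2, on 14 and 8 reads, had 28.6 and 25%, between the wild-type range and equality (-1.27 ± 0.72, not called). At the neighbouring Tssc4, on 123 and 85 reads, the ratio in matDKO/CAST was -0.05 ± 0.26.

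In ExE total H3K4me3 was lower in matDKO/CAST than in B6/CAST at 10 of 32 merged peaks, against 0.156% of autosomal merged peaks (limma), and at 26 of 32 both matDKO/CAST libraries lay below all 4 wild-type libraries, against 4.77% of autosomal merged peaks. In Epi 0 of 32 were lower (limma, 4 at an unadjusted p below 0.05, against 0.101% called over the autosomes). Of the 9 peaks at members' start sites 7 fell in ExE, with a median log2 difference of -1.43 over the 9 and of -0.09 over all merged peaks. Ascl2 had 0.949 and 1.23 RPKM in matDKO/CAST and 5.38, 4.01, 3.89 and 3.62 in wild type (-1.70 ± 0.22, adjusted p 4.07e-06). Phlda2 had 1.00 and 1.28 RPKM (-1.63 ± 0.22, 1.85e-05), Kcnq1 0.949 and 1.04 against 2.11 to 4.15 (-1.52 ± 0.22, 3.89e-05), and Cd81 2.28 and 1.94 (-1.44 ± 0.23, 2.88e-04). Cdkn1c (-1.43 ± 0.23, 3.23e-04), Tssc4 (-1.32 ± 0.22, 9.86e-04) and Slc22a18 (-1.31 ± 0.27, 0.0134) fell as well. Tnfrsf23 (-0.88 ± 0.23, 0.144) was not called, but was among peaks with a mean of at least 1 RPKM (0.0211). Nap1l4 (7.68 and 8.58 RPKM against 8.40 to 11.3, -0.07 ± 0.23) and Cars (12 and 14.1 against 12.4 to 17.2, -0.06 ± 0.25) were near the wild type. Kcnq1ot1 was higher in both matDKO/CAST libraries than in all wild-type libraries, with 9.61 and 11.6 against 5.22 to 6.83 RPKM in ExE (0.75 ± 0.23) and 11.9 and 8.70 against 4.68 to 8.52 in Epi (0.81 ± 0.23), and was not called (0.381 and 0.154), but was in ExE with edgeR on whole reads (0.93, 0.0288) and in Epi with a block of replicate number (0.81, 1.86e-04). Centring on the median of all peaks left 7 lower peaks, without Cd81 (0.0582) and Tssc4 (0.153), leaving out B6/CAST ExE replicate 1 left 4, without Cdkn1c (0.106), Slc22a18 (0.819) and Tssc4 (0.0665), and leaving out matDKO/CAST ExE replicate 3 left 6, without Slc22a18 (0.135) and Tssc4 (0.0706).

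Read per allele, as reads per mega (RPM) of all reads of that allele in autosomal peaks and with no test, the loss in ExE lay on the maternal copy. At 8 of the 9 start sites both matDKO/CAST libraries had fewer maternal reads than all 4 wild-type libraries (11.8% of informative autosomal peaks had), and at the remaining one, Kcnq1ot1, more. The maternal level of Phlda2 was 10.1 and 10.3 RPM in matDKO/CAST and 63.1 to 72.8 in wild type, while its paternal level was 9.35 and 12.1 against 7.43 to 11.6. Cdkn1c had a maternal level of 4.34 and 7.83 against 26.0 to 41.7 and a paternal level of 6.82 and 7.70 against 5.13 to 8.19. At Ascl2 the maternal level was 4.34 and 4.89 against 14.8 to 22.9, and at Tssc4 28.2 and 35.2 against 102 to 130. The maternal level of Kcnq1ot1 was 3.34 to 5.73 RPM in wild type and 141 and 184 in matDKO/CAST, beside a paternal level of 178 and 179 against 166 to 183. At 2 of the 9 the paternal level was below all wild-type libraries as well, where 12.6% of informative autosomal peaks were. Cd81 had a paternal level of 11 and 15.9 against 19.7 to 52.5, next to a maternal level of 34.8 and 40.1 against 109 to 160. Slc22a18 had a paternal level of 3.30 and 3.79 against 5.11 to 8.19, next to a maternal level of 2.90 and 6.85 against 16.2 to 34.5. In Epi the maternal level was below all wild-type libraries at 2 of the 9 start sites, Cd81 and Tssc4, where 11.2% of informative autosomal peaks were, and above them at Kcnq1ot1. The paternal level in Epi was above all wild-type libraries at 2 of the 9, where 14.9% of informative autosomal peaks were: Tssc4 had 96.4 and 100.7 RPM against 67.6 to 95.7, and Tnfrsf23 16.3 and 18.9 against 10.1 to 15.

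**Figure D4:**
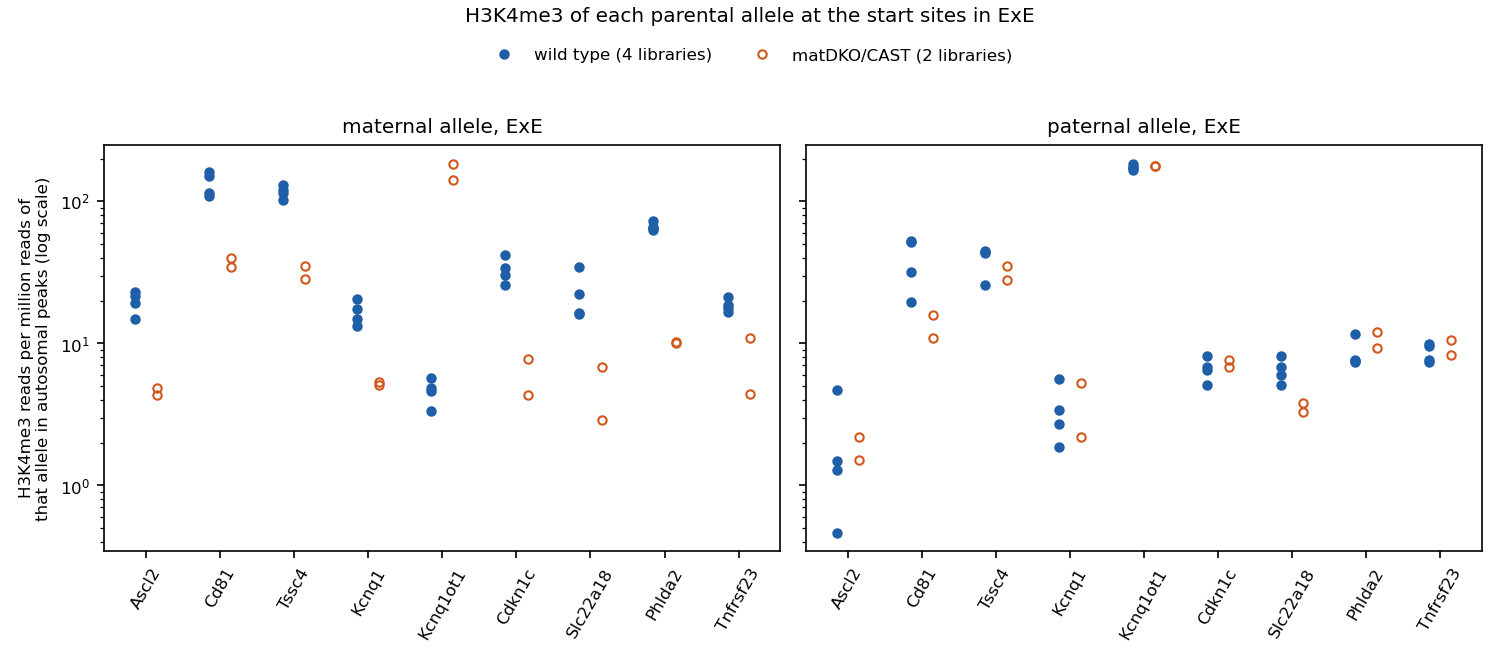
H3K4me3 reads of the maternal (left) and paternal (right) allele at 9 start sites in ExE, in RPM of that allele's reads in autosomal peaks on a log axis, 1 point per library. On the maternal side the 2 matDKO/CAST libraries lie below the 4 wild-type libraries at all genes but Kcnq1ot1, where they lie at 141 and 184 against 3.34 to 5.73, and on the paternal side most genes overlap.

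H3K27me3 lost its bias in matDKO/CAST while the mark itself stayed. The difference from B6/CAST was called at 3 of 3 domains in ExE (0.742% of autosomal peaks) and at 3 of 8 in Epi (0.179%). In ExE the centromeric domain had a paternal share of 50.1 and 50.5%, the middle one 48.8 and 48.6% and the telomeric one 45.5 and 48.8%, with log2 differences of -1.59 ± 0.15, -2.13 ± 0.15 and -0.98 ± 0.15 (adjusted p 1.64e-16, 2.06e-24 and 4.28e-07). In Epi the 3 called peaks had 45.7 to 52.4%. All 3 calls were lost without matDKO/CAST Epi replicate 1 (0.158 to 1.0), and that of the Ascl2 peak also without replicate 2 (0.606). A bias was left at 0 of 8 peaks in Epi and 0 of 3 in ExE by edgeR (0 and 1 at an unadjusted p below 0.05, 0 with DESeq2, against 1.97% and 2.10% of autosomal peaks), and at 2 and 2 with the library as a block, with log2 ratios of 0.20 to 0.29, relative to the totals of the allele columns, at the 4 peaks. Without matDKO/CAST ExE replicate 3 the centromeric domain was called (0.35, 0.0202). The middle domain held 5.33 and 3.96 RPKM in matDKO/CAST ExE and 2.74 to 3.52 in wild type (0.56 ± 0.20, not called by limma at 0.481, called by edgeR on whole reads at 0.00375). No 10 kb bin of the cluster was called in ExE in this contrast (0 of 96, limma), and how often such stretches separate elsewhere was not counted. From Kcnq1ot1 to Phlda2 the mean of the bins was 4.04 and 5.45 RPKM in matDKO/CAST ExE against 2.81 to 3.60, while from Phlda2 to Cars it was 0.483 and 0.606 against 0.324 to 0.355. From Kcnq1 to the 3′ end of Kcnq1ot1 it was 3.15 and 4.34 against 2.45 to 2.91 RPKM. Beyond Cars it was 1.43 and 2.05 against 1.27 to 1.93 RPKM, so the libraries overlapped there, as they did over the body of Kcnq1ot1 and centromeric of Kcnq1.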

How the data were processed

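ChIP-seq of 3 marks in 36 libraries and 15 inputs was analysed from the deposited files. The members and the gene and marker lists were chosen with earlier results of these data known. The authors trimmed reads with Trim Galore 0.4.4 and aligned them to GRCm38 with Bowtie2 2.3.2 (submitters' notes), assigned reads to parents with SNPsplit, called peaks with chromstaR, combined those of both reciprocal crosses without duplicates, and deposited the number of reads per parent in each peak as a count. In matDKO/CAST, variants shared by 129 and CAST were excluded, and reads matched to 129 on a second alignment were added to the maternal column. The authors also deposited RPKM (reads scaled to window length and library size) of 1 kb windows, made in SeqMonk, and peak lists whose score is 0 throughout and was not used as deposited. Where a peak's name and its start and end columns differed, the columns were used.

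Allele counts of autosomal peaks (GRCm38 coordinates) were tested with edgeR 4.0.16 (R 4.3.3), quasi-likelihood, in each cross on its own, and the change of bias by contrasts of parent with cross or tissue, after matching peaks that shared at least 50% of the shorter one as mutual best overlap. RPKM were averaged under merged peaks and tested with limma 3.58.1 on log2(RPKM + 0.5), which understates changes of low peaks, in 1 fit of the 12 libraries of a mark. Adjusted p-values cover all autosomal features (threshold 0.05). RPKM values were whole multiples of 1 read within 0.1 of a read, from which window depths of 4.71 to 20.8 M (mega) reads for H3K4me3, 3.47 to 24.3 for H3K27me3 and 2.29 to 14.0 for H3K36me3 follow. edgeR on these whole reads and DESeq2 1.42.0 served as alternatives, besides other pseudocounts, filters, scalings, single libraries left out and blocks. Single values per library were compared by exact permutation (scipy 1.17.1). Scripts were tested on simulated data.

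All 10 genes are described, by the peak within 1 kb of the start site, or else the peak that overlaps the body most (GENCODE vM21), and other genes of the interval as counts, with values for those that passed a test. Nap1l4, Cars, Osbpl5 and Mrgpre were named after their values were seen. Both allele columns of a library come from 1 pool: their deviations from the group mean correlated in all 18 groups (r from 0.0132 to 0.552), so the fit with the library as a block is given where it changes a call. No pair of replicates was identical, and each differed by more than counting noise.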

Additional observations from a re-analysis of the deposited data

Results flagged for a closer look

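At 4 H3K4me3 peaks the test of the difference between the tissues, over both wild-type crosses, passed in the fit across all matched autosomal peaks (edgeR, adjusted p below 0.05). The log2 ratio of paternal to maternal reads in ExE minus that in Epi was -3.65 ± 0.50 (SE) at Ascl2, -1.53 ± 0.17 at the peak of Cd81 and R74862, -1.16 ± 0.17 at Tssc4 and -2.3 ± 0.46 at the peak from 143444000 without a start site. The first 3 lie centromeric of Kcnq1ot1 and were near equal or slightly maternal in Epi. Total H3K4me3 at Ascl2 and Tssc4 was not called different between the tissues, while at Cd81 it was lower in ExE (-0.48 ± 0.16, limma adjusted p 0.0147). Without CAST/B6 Epi replicate 2, the deeper Epi library of that cross, Cd81 alone kept its call.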

How the results depend on the processing

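Depth is 1 limit: CAST/B6 Epi replicate 3 had 1.36 M (mega) allelic H3K4me3 reads, and most start sites rest on fewer reads than those of Kcnq1ot1, Cd81, Tssc4, Nap1l4 and Cars. The size of difference detectable at them was not tested. For results of single genes, 1270 alternative values kept their direction and side of the threshold, 80 lost the threshold, 27 passed it, 34 changed sign without passing it under either setting, and 1 turned: total H3K27me3 of the middle domain, ExE against Epi, was 0.09 and not called, and -0.27 and called lower (adjusted p 0.0158) with edgeR on whole reads. The cause of each change below was not tested.

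Peaks called imprinted for H3K4me3 in Epi numbered 3, and 1 at an adjusted p below 0.01, 1 with DESeq2 and 1 to 3 with single libraries left out, and in ExE 8 to 14 with single libraries left out. For H3K27me3 in Epi they numbered 5, and 3 at 0.01, 3 with DESeq2, 8 in a joint fit of both crosses and 3 to 6 with single libraries left out. For H3K36me3 in ExE there was 1, and 2 with no minimum of reads and 2 in the joint fit. The H3K4me3 bias left in matDKO/CAST ExE was 1 peak, 0 with DESeq2 and 0 to 1 with libraries left out, and for H3K27me3 it was 0, with 2 in Epi and 2 in ExE under the library block and 0 to 1 in ExE with libraries left out. The matDKO/CAST difference in H3K4me3 was 2 in Epi, 1 with DESeq2 and 1 to 2 with libraries left out, and 4 in ExE, 8 under the library block and 1 to 3 with libraries left out. In H3K27me3 Epi it was 0 to 3 and in H3K36me3 Epi 0 to 1 with libraries left out, and 0 with DESeq2 for the latter. The tissue difference in bias was 1 to 4 for H3K4me3 with libraries left out, and for H3K27me3 1 with DESeq2, 1 under the library block and 0 to 1 with libraries left out. The block changed no other count by more than 1.5 times.

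Total H3K4me3 was higher in ExE at 7 peaks, and at 1 with a mean of at least 1 RPKM and 4 after centring, and lower at 3 to 7 with libraries left out. H3K27me3 was higher at 2, and 1 after centring, 1 with edgeR on whole reads, where 1 was lower, and 1 to 2 with libraries left out. H3K36me3 was lower at 1 with a block of cross and number. In matDKO/CAST, H3K4me3 in ExE was lower at 4 to 8 peaks with libraries left out, and higher at 1 with edgeR, H3K27me3 in ExE was higher at 2 with edgeR, and H3K4me3 in Epi was higher at 1, Kcnq1ot1 (0.81, adjusted p 1.86e-04), with a block of replicate number. H3K36me3 in matDKO/CAST Epi was higher at 1 with edgeR and lower at 0 to 1 with libraries left out. In ExE it was higher at 1 with a mean of at least 1 RPKM and 1 with edgeR, and lower at 1 after centring and 1 with edgeR. The ratio of the cluster mean RPKM, ExE over Epi, turned to 1.43 outside peaks and 1.06 relative to all peaks for H3K4me3 (0.976 to 1.007 with libraries left out, above 1 without CAST/B6 Epi replicate 2), to 0.932 outside peaks for H3K27me3, and to 0.963 and 0.922 for H3K36me3. Whether replicate numbers shared between groups pair the samples cannot be decided with fewer than 3 pairs: deviations correlated at 0.345 and 0.252 for H3K4me3 and -0.041 to 0.108 for the other marks.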
